A study of Homo sapiens with 6 samples.

Results

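The receptor tyrosine kinases, the ephrins and the ligands of the EGF and PDGF families were examined here as a set of 51 genes in MDA-MB-231 breast cancer cells with and without silencing of TIP-1. The rule names genes of these families and uses no measured value, but it was drawn up with earlier results of these data known. Of the 51 genes, 48 had at least 1 array row of their own, among 18418 genes in the whole table that did. RET was present only on a row shared with KIF5B, and EPHB2 and AREG were not analysed here. Receptor tyrosine kinases span the plasma membrane: a ligand outside the cell brings receptors together, and their kinase domains then phosphorylate each other and recruit adaptors that start RAS, PI3K and SRC-family signalling. Eph receptors bind ephrins on the surface of neighbouring cells, so both partners are membrane-bound, and the pair can signal into both cells, with repulsion, boundary formation and altered adhesion as the best known outcomes. EGF family ligands are made as membrane-anchored precursors that ADAM proteases release, and EGFR, MET and AXL are well known in basal and mesenchymal breast cancer lines such as MDA-MB-231.

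TIP-1, encoded by TAX1BP3, is a small protein that consists almost entirely of a PDZ domain, the fold that grips the C-terminal tail of partner proteins. The study compared 3 groups of stable MDA-MB-231 clones. The first group carried TIP-1 shRNA 159 (2 clones), the second carried TIP-1 shRNA 162 (2 clones), a different hairpin against the same gene, and the last carried a control shRNA (2 clones). All clones were grown in serum-containing medium, seeded after trypsin and harvested after a night in culture. One Affymetrix Human Gene 1.0 ST array was run for each clone, and each value is a deposited log2 signal. The target of the control hairpin is not given in the sources used here, and clones of the same hairpin were independent but no technical replicate was made. The spread within a group is therefore the difference between 2 clones, and in bulk RNA fewer cells of a type and less RNA per cell cannot be told apart.

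The targeted gene was lower in every silenced clone. TAX1BP3 had a log2 signal of 10.40 and 10.40 in shRNA 159 clones and of 9.85 and 10.01 in shRNA 162 clones, against 11.65 and 11.56 in control clones. With shRNA 159 the signal was 43.4% of control (limma adjusted p = 0.00034), and with shRNA 162 it was 31.3% (adjusted p = 4.37e-05). Silencing was deeper with shRNA 162 (shRNA 159 minus shRNA 162, log2 0.47, adjusted p = 0.013). This difference did not pass under 2 of 12 alternatives, and it was 0.39 without shRNA 162 clone 1. The TAX1BP3 row is shared with the P2RX5-TAX1BP3 readthrough transcript. Among the 6 markers fixed for this line, VIM, CD44, MSN, CAV1, AXL and EGFR lay between the 87.8 and 99.6 percentile of all rows, while 4 of the 8 luminal markers (ESR1, PGR, ERBB3 and CDH1) were below the lower quartile of every array and the other 4 (GATA3, FOXA1, KRT19 and TFF1) lay between the 42.8 and 51.0 percentile. Of the other cell types, 2 of 4 leukocyte markers (PTPRC and CD3E) and 4 of 6 fibroblast and endothelial markers (PECAM1, VWF, DCN and LUM) were below the lower quartile of every array, whereas CD68 was at the 96.3 percentile and COL1A1 at the 62.6. None of the markers of luminal, leukocyte, fibroblast or endothelial cells passed the test in any comparison. Medians of the 6 arrays lay between 7.86 and 7.91, and the 2 clones of a group correlated at 0.9958 or above across rows.

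Of the 48 members, 7 passed the test in at least 1 comparison and 41 in none, and those that fell were 4 ligands and 1 receptor. The share of all rows that passed in at least 1 comparison was not counted, and the shares in each comparison are given below. With shRNA 159, EPHA4 and EFNB2 fell and 0 members rose (4 were higher and 4 lower at an unadjusted p under 0.05). With shRNA 162, the ligands EFNB2, TGFA, PDGFA and EFNA4 and the receptor EPHA4 fell, and the receptor FGFR1 rose. Only EPHA4 and EFNB2 passed with both hairpins, and both went down each time. A member is said to rise or fall where limma's moderated test, adjusted by Benjamini-Hochberg over all 21214 rows with a gene symbol, gave an adjusted p under 0.05.

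For shRNA 159 minus control, 2 of 48 members passed (4.17%), as did 2.53% of all rows. Both were lower, against 0.839% of all rows. The other direction held 0 members, against 1.69% of all rows. For shRNA 162 minus control, 6 of 48 members passed (12.5%), as did 9.52% of all rows. Of these 5 were lower, against 3.64% of all rows, and 1 was higher, against 5.88%. Across all rows this split leaned upward (1247 higher and 772 lower) but was even after quantile normalization (1081 and 1065). For shRNA 159 minus shRNA 162, 6 members passed, against 8.65% of all rows, with 5 higher (4.02% of all rows) and 1 lower (4.64%). For the mean of both hairpins minus control, 3 members passed, all lower, against 4.62% of all rows in either direction and 1.61% lower (3.01% higher, with 639 higher and 341 lower among all rows, and 549 and 465 after quantile normalization). Members lower with each hairpin numbered 2 of 48, against 0.339% of all rows, and both comparisons use the same control clones. At an unadjusted p under 0.05 the counts were 8 members with shRNA 159 (14.1% of all rows), 11 with shRNA 162 (25.1%), 12 between hairpins (24.2%) and 10 for the mean (19.8%). With the rows that have no symbol tested too, the calls that passed were EPHA4 with shRNA 159, EPHA4, EFNB2 and TGFA with shRNA 162, EPHA4 and EFNB2 for the mean, and 0 between hairpins. No share of members was tested against its background. The median change of the members was -0.04 with shRNA 159 and -0.02 with shRNA 162, beside -0.01 and 0.02 over all rows.

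**Figure D1:**
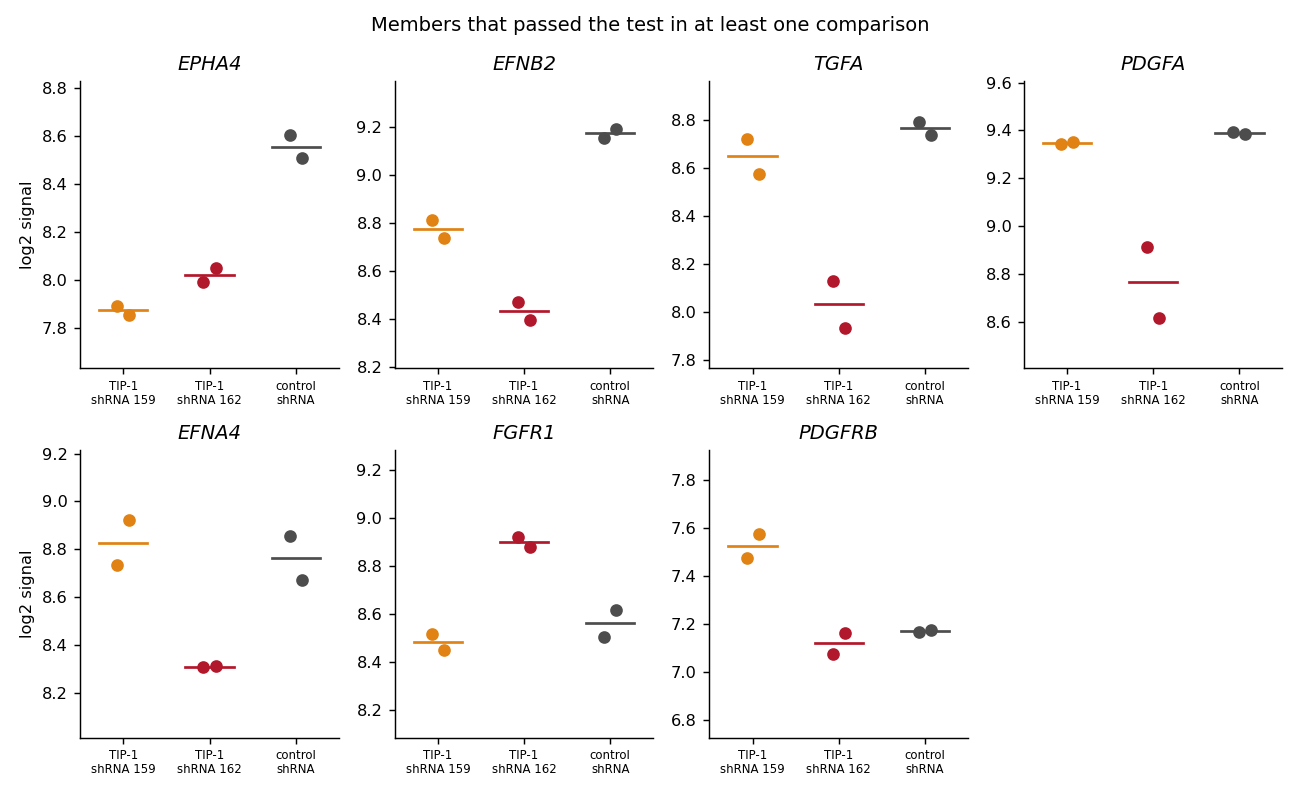
Log2 signal of the 7 members that passed in at least 1 comparison, in each clone of TIP-1 shRNA 159, TIP-1 shRNA 162 and control shRNA; points are clones, lines are group means, and every panel spans the same range of log2 units. EPHA4 is below control with both hairpins (7.85 to 8.05, against 8.51 and 8.61), whereas TGFA, PDGFA and EFNA4 are low in the shRNA 162 clones and lie near control in the shRNA 159 clones.

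EPHA4 is the Eph receptor with an unusually wide ligand range, binding ephrin-A and ephrin-B proteins, and is best known for repelling growing axons. Its signal was 7.89 and 7.85 in shRNA 159 clones, 7.99 and 8.05 in shRNA 162 clones, and 8.61 and 8.51 in control clones. All 4 silenced clones were below both control clones. EPHA4 fell by 0.68 log2 units with shRNA 159 (SE 0.08, 1.61-fold lower, limma adjusted p = 0.00355) and by 0.54 with shRNA 162 (SE 0.08, 1.45-fold lower, adjusted p = 0.00537). The hairpins did not differ detectably for EPHA4 (shRNA 159 minus shRNA 162, -0.15, 95% interval -0.33 to 0.03, adjusted p = 0.293). The mean over both hairpins was -0.61 (SE 0.07, adjusted p = 0.00258). The call with shRNA 159 passed under all 12 alternatives. That with shRNA 162 was lost without control clone 1 (-0.49, adjusted p = 0.0539), and that of the mean when hairpin was a random block (adjusted p = 0.0692).

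EFNB2 encodes ephrin-B2, a transmembrane ephrin that binds EPHB4 and EPHA4, marks arterial endothelium and carries a PDZ-binding tail. Its signal was 8.81 and 8.74 in shRNA 159 clones, 8.47 and 8.39 in shRNA 162 clones, and 9.16 and 9.19 in control clones. The 3 groups did not overlap, with the shRNA 162 clones lowest and the shRNA 159 clones between them and control. EFNB2 fell by 0.40 with shRNA 159 (SE 0.08, 1.32-fold lower, limma adjusted p = 0.0346) and by 0.74 with shRNA 162 (SE 0.08, 1.67-fold lower, adjusted p = 0.00121). The difference between hairpins was 0.34 (adjusted p = 0.0308), and the mean over both was -0.57 (adjusted p = 0.00313). The shRNA 162 call passed under all 12 alternatives. The shRNA 159 call was lost without any 1 of the 6 clones (adjusted p from 0.0694 to 0.24), and so was the difference between hairpins (0.056 to 0.186). Fitting only the 4 arrays compared also ended both of these calls. The mean was lost without control clone 2 (-0.55, adjusted p = 0.0507), with the 4 silenced clones as 1 group (0.149) and with hairpin as a random block (0.241).

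EFNA4 encodes a GPI-anchored ephrin that binds EphA receptors. It had 8.74 and 8.92 in shRNA 159 clones, 8.31 and 8.31 in shRNA 162 clones, and 8.86 and 8.67 in control clones. The shRNA 162 clones stood below the other 4, and the shRNA 159 and control clones overlapped. EFNA4 fell by 0.45 with shRNA 162 (SE 0.10, limma adjusted p = 0.0239) and changed by 0.07 with shRNA 159 (95% interval -0.16 to 0.29, adjusted p = 0.814). The difference between hairpins, 0.52, passed as well (adjusted p = 0.0151). The shRNA 162 call was lost without either control clone (adjusted p = 0.149 and 0.0528) or either shRNA 162 clone (0.109 and 0.118), and the difference without either shRNA 162 clone (0.0831 and 0.0819) or shRNA 159 clone 2 (0.0612).

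The other Eph receptors and ephrins did not pass in any comparison. EPHA2, the receptor of ephrin-A1 and the EphA most often studied in breast cancer, had 10.86 and 10.70 in shRNA 159 clones, 10.82 and 10.78 in shRNA 162 clones, and 10.84 and 10.79 in control clones. These groups overlapped fully, and the 95% intervals of the change ran from -0.22 to 0.16 with shRNA 159 and from -0.21 to 0.17 with shRNA 162. EPHB4, the main receptor of ephrin-B2, had 8.53 and 8.47 in shRNA 159 clones, 8.51 and 8.62 in shRNA 162 clones, and 8.60 and 8.80 in control clones. Its change was -0.19 with shRNA 159 (95% interval -0.40 to 0.02, adjusted p = 0.395) and -0.13 with shRNA 162 (-0.34 to 0.08, adjusted p = 0.421). EFNA5, a GPI-anchored ligand of EphA receptors, had a change of 0.16 with shRNA 159 and -0.02 with shRNA 162. EFNB1, another transmembrane ephrin, changed by 0.00 with shRNA 159 and 0.10 with shRNA 162. EPHA3, EPHA5 and EPHA7 were below the lower quartile on all arrays (6.68 to 6.81 depending on the array), so a loss of theirs would be hard to measure.

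**Figure D2:**
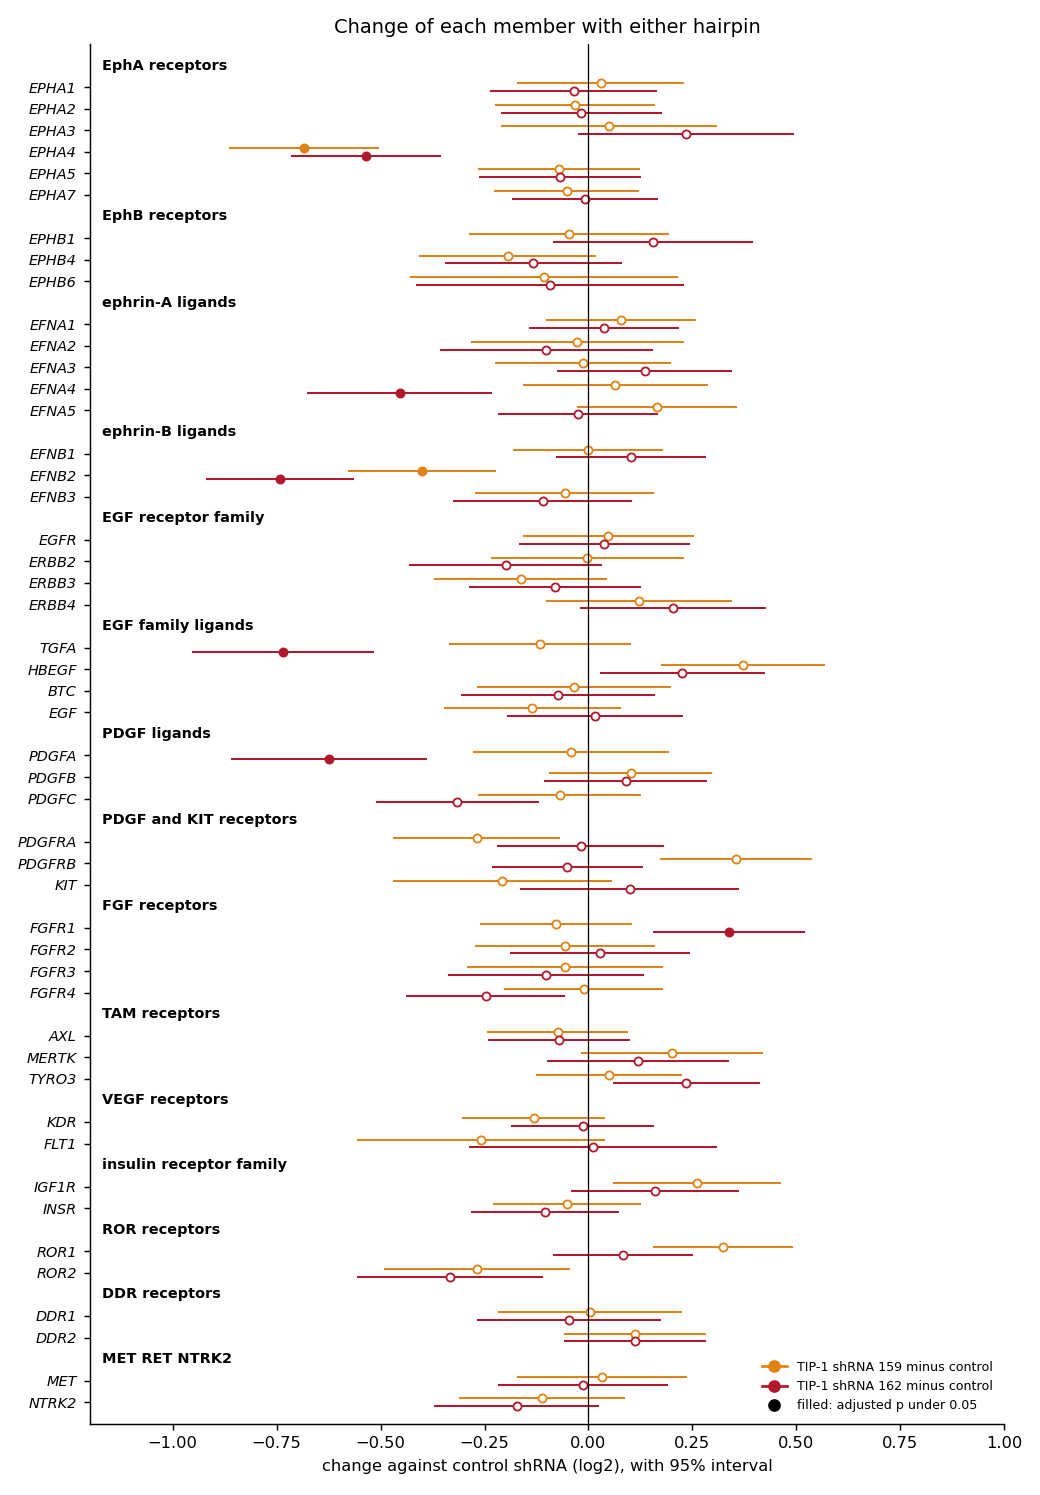
Log2 change of each of the 48 members against control shRNA, grouped by family, for TIP-1 shRNA 159 (orange) and TIP-1 shRNA 162 (red), with 95% intervals from limma; filled points have an adjusted p under 0.05. Filled points are few: EPHA4 and EFNB2 for both hairpins, and TGFA, PDGFA, EFNA4 and FGFR1 for shRNA 162, while the widest interval of any member that did not pass reaches 0.32 to each side.

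The promoters of the 4 members that fell most with shRNA 162 (EFNB2, TGFA, PDGFA and EPHA4) are shown. With shRNA 159, EPHA4 changed by -0.68 and EFNB2 by -0.40, but TGFA by -0.12 and PDGFA by -0.04. Whether these promoters have a part in any change was not tested. Each sequence is the 250 bases before the RefSeq gene start on the minus strand of GRCh38.p14, written 5′ to 3′ in the direction of transcription, at chr13:106535663-106535912 for EFNB2, chr2:70553827-70554076 for TGFA, chr7:520701-520950 for PDGFA and chr2:221574203-221574452 for EPHA4. Capitals mark matches, on either strand, to GGGCGG (the GC box) and CCAAT (the CCAAT box).
EFNB2: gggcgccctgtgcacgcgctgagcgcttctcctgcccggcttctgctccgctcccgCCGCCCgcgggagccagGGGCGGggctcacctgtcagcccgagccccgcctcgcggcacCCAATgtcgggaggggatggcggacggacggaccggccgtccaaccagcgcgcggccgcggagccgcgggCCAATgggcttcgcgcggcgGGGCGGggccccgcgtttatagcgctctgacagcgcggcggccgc
TGFA: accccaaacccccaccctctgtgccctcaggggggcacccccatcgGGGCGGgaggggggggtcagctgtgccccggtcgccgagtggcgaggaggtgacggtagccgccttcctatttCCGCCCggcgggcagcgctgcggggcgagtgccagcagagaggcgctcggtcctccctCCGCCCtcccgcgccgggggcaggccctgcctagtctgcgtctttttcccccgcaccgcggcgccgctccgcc
PDGFA: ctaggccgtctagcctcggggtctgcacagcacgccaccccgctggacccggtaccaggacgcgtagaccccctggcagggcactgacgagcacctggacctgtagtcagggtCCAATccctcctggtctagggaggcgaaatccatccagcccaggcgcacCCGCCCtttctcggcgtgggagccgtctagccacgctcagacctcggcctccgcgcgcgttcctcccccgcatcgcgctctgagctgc
EPHA4: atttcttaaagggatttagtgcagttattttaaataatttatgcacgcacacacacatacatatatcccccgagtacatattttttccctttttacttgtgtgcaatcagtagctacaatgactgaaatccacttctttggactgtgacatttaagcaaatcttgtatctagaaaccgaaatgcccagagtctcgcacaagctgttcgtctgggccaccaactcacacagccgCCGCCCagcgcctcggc

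The EFNB2, TGFA and PDGFA windows were rich in G and C (78.4%, 75.6% and 68.8%), whereas that of EPHA4 had 43.2%, beside a median of 58% over all 35116 RefSeq windows. EFNB2 held 3 GC boxes and 2 CCAAT boxes, TGFA 3 GC boxes, PDGFA 1 of each and EPHA4 1 GC box close to the start. GC boxes were present in 42.6% of all windows and CCAAT boxes in 32%. Searches on both strands for TGANTCA (AP-1, in 6.57% of all windows), CTTTGA (TCF/LEF, 11.2%) and GGAATG (TEAD, 11.9%) found no match in these 4 windows. EPHA4, TGFA and PDGFA have other RefSeq starts whose windows are not shown. The other EPHA4 window held 5 GC boxes and 1 CCAAT box, the other TGFA window 0 of either, and the 3 other PDGFA windows 3 to 5 GC boxes, with 1 TCF/LEF match in one of them. AP-1 and TEAD had 0 matches there, and which start is used in these clones was not tested. RefSeq windows were at hand for 46 members.

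TGFA and HBEGF are both ligands of EGFR, and TGFA was the EGF family ligand that passed. TGFA, which ADAM17 releases from the cell surface, had 8.72 and 8.58 in shRNA 159 clones, 8.13 and 7.93 in shRNA 162 clones, and 8.79 and 8.74 in control clones. The shRNA 162 clones were well below the other 4, and the shRNA 159 clones lay just under control. TGFA fell by 0.73 with shRNA 162 (SE 0.09, 1.66-fold lower, limma adjusted p = 0.00333) and changed by -0.12 with shRNA 159 (95% interval -0.33 to 0.10, adjusted p = 0.639). The difference between hairpins was 0.62 (adjusted p = 0.00702). It was lost without shRNA 162 clone 2 (0.52, adjusted p = 0.0535), while the shRNA 162 call passed under all 12 alternatives. The mean over both hairpins, -0.43 (adjusted p = 0.0261), thus combined unequal changes. It did not pass without control clone 1 or 2 (adjusted p = 0.177 and 0.159) or without shRNA 162 clone 2 (0.0768). Nor did it pass with rows without a symbol tested too (0.126), with the 4 silenced clones as 1 group (0.513) or with hairpin as a random block (0.72).

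HBEGF, a ligand of EGFR and ERBB4, was among the brightest members. It had 12.04 and 12.07 in shRNA 159 clones, 11.92 and 11.89 in shRNA 162 clones, and 11.59 and 11.77 in control clones. All 4 silenced clones were above both control clones, but no comparison passed. The change was 0.37 with shRNA 159 (limma adjusted p = 0.0689), 0.23 with shRNA 162 (adjusted p = 0.142) and 0.30 for the mean (adjusted p = 0.0621). HBEGF passed with shRNA 159 and for the mean when dim rows were left out or the variance followed the mean signal, and under that variance trend with shRNA 162 as well. BTC and EGF, ligands of the same receptor, were below the lower quartile on all arrays.

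The EGF receptor family itself did not pass. EGFR had 10.40 and 10.25 in shRNA 159 clones, 10.30 and 10.33 in shRNA 162 clones, and 10.21 and 10.35 in control clones. The groups overlapped, and the 95% interval of the change ran from -0.16 to 0.25 with shRNA 159 and from -0.16 to 0.24 with shRNA 162. ERBB2, the co-receptor with no known ligand of its own, had a change of 0.00 with shRNA 159 and -0.20 with shRNA 162 (adjusted p = 0.264). ERBB4, a neuregulin receptor, had between 6.73 and 7.01 over the 6 clones, and ERBB3, its relative with a weak kinase, was below the lower quartile on all arrays.

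PDGFA, the A chain of platelet-derived growth factor and a ligand of PDGFRA, fell with shRNA 162. It had 9.34 and 9.35 in shRNA 159 clones, 8.91 and 8.62 in shRNA 162 clones, and 9.39 and 9.38 in control clones. Both shRNA 162 clones were below the other 4, and they were 0.29 apart, the widest gap between the shRNA 162 clones of any member. PDGFA fell by 0.62 with shRNA 162 (SE 0.10, 1.54-fold lower, limma adjusted p = 0.00843) and changed by -0.04 with shRNA 159 (95% interval -0.28 to 0.19, adjusted p = 0.895). The difference between hairpins was 0.58 (adjusted p = 0.0121). The shRNA 162 call was lost without control clone 1 or 2 (adjusted p = 0.0637 and 0.0582) or shRNA 162 clone 2 (-0.48, 0.0537), and the difference without that last clone (0.0679). The mean (-0.33, adjusted p = 0.0775) passed without shRNA 162 clone 1 (-0.41, 0.0382), with dim rows left out and under a variance trend.

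PDGFC, which also binds PDGFRA, had 10.34 and 10.31 in shRNA 159 clones, 10.04 and 10.12 in shRNA 162 clones, and 10.32 and 10.48 in control clones. Its change with shRNA 162 was -0.32 and just missed the threshold (limma adjusted p = 0.0533). It passed with dim rows left out, after quantile normalization and under a variance trend, and under that trend between hairpins too. PDGFB, the B chain, changed by 0.10 with shRNA 159 and 0.09 with shRNA 162.

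Among the PDGF receptors, PDGFRB, which binds the B chain, differed between the hairpins. It had 7.48 and 7.57 in shRNA 159 clones, 7.08 and 7.16 in shRNA 162 clones, and 7.17 and 7.17 in control clones. The shRNA 159 clones stood above the other 4. PDGFRB was 0.41 higher with shRNA 159 than with shRNA 162 (SE 0.08, limma adjusted p = 0.0177), and its change against control was 0.35 with shRNA 159 (adjusted p = 0.0609) and -0.05 with shRNA 162 (adjusted p = 0.75). The change with shRNA 159 passed with dim rows left out and after quantile normalization. The difference was lost without either shRNA 162 clone (adjusted p = 0.127 and 0.0706) or shRNA 159 clone 2 (0.0662). A dimmer row shared by EBF1 and PDGFRB did not pass (-0.16 between hairpins, adjusted p = 0.254). PDGFRA and KIT, the receptor of stem cell factor, were below the lower quartile on all arrays.

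FGFR1, a receptor of fibroblast growth factors, was the member that rose. It had 8.52 and 8.45 in shRNA 159 clones, 8.92 and 8.88 in shRNA 162 clones, and 8.50 and 8.62 in control clones. The shRNA 162 clones were above the other 4, and the shRNA 159 and control clones overlapped. FGFR1 rose by 0.34 with shRNA 162 (SE 0.08, 1.26-fold, limma adjusted p = 0.034) and changed by -0.08 with shRNA 159 (adjusted p = 0.714). The difference between hairpins was -0.42 (adjusted p = 0.0166). The shRNA 162 call was lost without either control clone (adjusted p = 0.191 and 0.09) or either shRNA 162 clone (0.168 and 0.14), and the difference without either shRNA 162 clone (0.11 and 0.0835) or shRNA 159 clone 2 (0.0618). FGFR2, FGFR3 and FGFR4, the related receptors, did not pass. FGFR4 changed by -0.25 with shRNA 162 (adjusted p = 0.104).

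The genes around FGFR1 on chromosome 8 were higher in the same clones. Of its 20 nearest measured neighbours, 10 on each side, 12 rose and 0 fell with shRNA 162, with a median change of 0.45. DDHD2, a phospholipase, rose by 1.15, the histone methyltransferase NSD3 by 0.91 and ASH2L, a subunit of histone methyltransferase complexes, by 0.76. With shRNA 159 the median was -0.04, 0 neighbours rose, and ADAM9 fell (-0.42). Between hairpins, 12 of the 20 were lower with shRNA 159. Whether the number of copies of this region differs between the clones was not tested. The other members that passed had no such surroundings: over the nearest 20 neighbours of EPHA4, EFNB2, TGFA, EFNA4 and PDGFRB, and the 11 of PDGFA, the median change lay between -0.07 and 0.05, and at most 2 rose and at most 2 fell in any comparison.

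**Figure D3:**
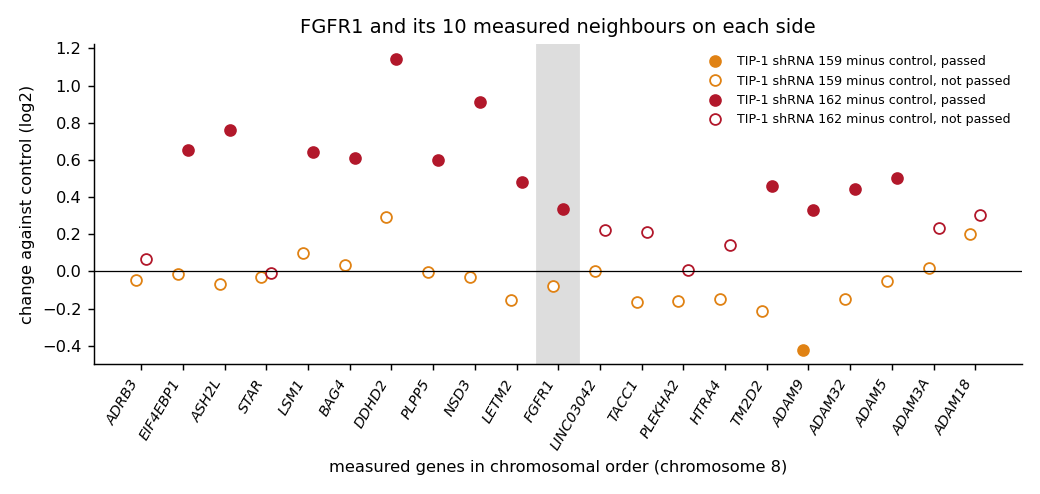
Log2 change against control shRNA of FGFR1 (grey band) and its 10 measured neighbours on each side, in chromosomal order, for TIP-1 shRNA 159 (orange) and TIP-1 shRNA 162 (red); filled points passed the test. With shRNA 162, 12 of the 20 neighbours rose, DDHD2 by 1.15, whereas with shRNA 159 the points scatter around 0 and ADAM9 is the neighbour that passed, at -0.42.

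The remaining receptors include the brightest members. AXL, the TAM receptor best known in mesenchymal tumour cells, had 12.58 and 12.53 in shRNA 159 clones, 12.57 and 12.54 in shRNA 162 clones, and 12.62 and 12.63 in control clones. The silenced clones were all below control, by a change of -0.07 with either hairpin, and neither passed (95% interval -0.24 to 0.09 with shRNA 159 and -0.24 to 0.10 with shRNA 162). MET, the hepatocyte growth factor receptor, had 10.87 and 10.80 in shRNA 159 clones, 10.75 and 10.83 in shRNA 162 clones, and 10.90 and 10.71 in control clones. The MET groups overlapped, with 95% intervals of the change from -0.17 to 0.23 with shRNA 159 and from -0.22 to 0.19 with shRNA 162.

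TYRO3, another TAM receptor, had 8.29 and 8.19 in shRNA 159 clones, 8.41 and 8.44 in shRNA 162 clones, and 8.21 and 8.17 in control clones. Its change with shRNA 162 was 0.24 (limma adjusted p = 0.0927). MERTK, the third of this family, had a change of 0.20 with shRNA 159 and 0.12 with shRNA 162. IGF1R, the receptor of insulin-like growth factors, had 8.65 and 8.45 in shRNA 159 clones, 8.44 and 8.46 in shRNA 162 clones, and 8.32 and 8.26 in control clones. All silenced clones were above control, with a change of 0.26 with shRNA 159 (adjusted p = 0.215) and 0.16 with shRNA 162 (adjusted p = 0.301). INSR, the insulin receptor, ranged over 0.16 log2 units among the 6 clones.

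ROR1 and ROR2, receptors of WNT5A, did not pass in any comparison. ROR1 had 9.63 and 9.62 in shRNA 159 clones, 9.37 and 9.41 in shRNA 162 clones, and 9.30 and 9.31 in control clones. The shRNA 159 clones were highest, but the change of 0.32 did not pass (limma adjusted p = 0.0645), nor did the 0.24 between hairpins (adjusted p = 0.0814). Both passed with dim rows left out and under a variance trend, which also let the mean pass. ROR2 had 7.06 and 7.31 in shRNA 159 clones, 7.11 and 7.13 in shRNA 162 clones, and 7.50 and 7.42 in control clones. All 4 silenced clones were below control, with a change of -0.27 with shRNA 159 (adjusted p = 0.25), -0.33 with shRNA 162 (adjusted p = 0.0682) and a mean of -0.30 (adjusted p = 0.0898). ROR2 passed with shRNA 162 when either shRNA 159 clone was left out of the fit, and the mean passed without shRNA 159 clone 2. With dim rows left out both passed, and with only the 4 arrays compared the shRNA 162 change did. The collagen receptors DDR1 and DDR2 changed by no more than 0.11 against control on their brightest rows, and no dimmer row of DDR1, DDR2 or IGF1R passed.

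**Figure D4:**
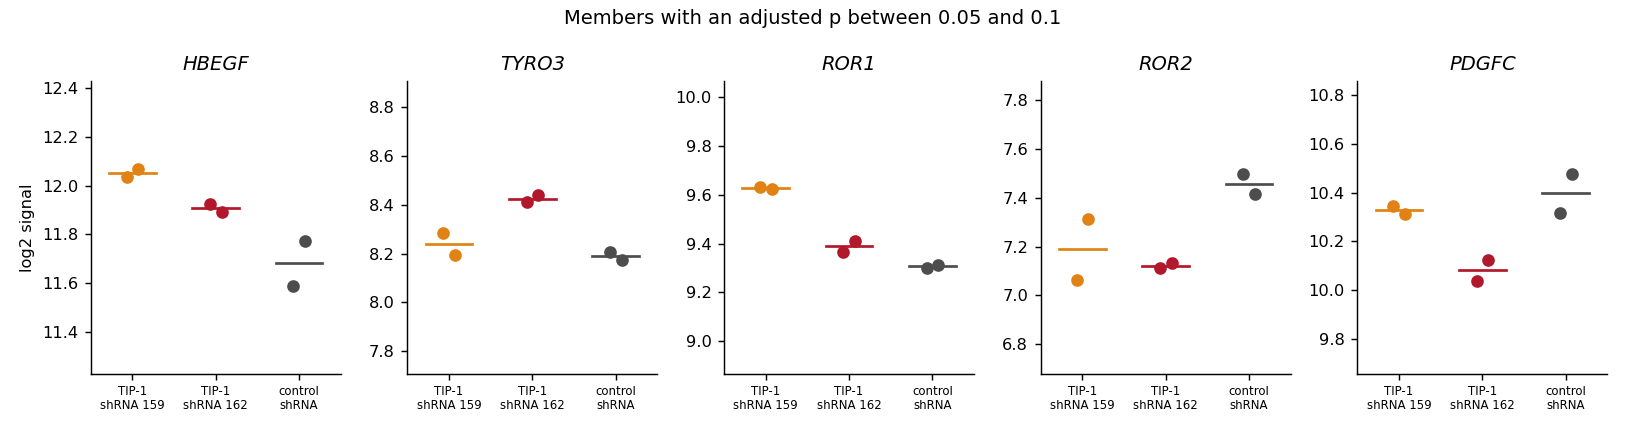
Log2 signal in each clone of the 5 members whose smallest adjusted p lay between 0.05 and 0.1, for TIP-1 shRNA 159, TIP-1 shRNA 162 and control shRNA; points are clones, lines are group means, and every panel spans the same range of log2 units. HBEGF is above control in all 4 silenced clones (11.89 to 12.07, against 11.59 and 11.77) and ROR2 is below it in all 4 (7.06 to 7.31, against 7.42 and 7.50).

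Of the 48 members, 12 were below the lower quartile on all 6 arrays: EPHA3, EPHA5, EPHA7, ERBB3, BTC, EGF, PDGFRA, FGFR2, KIT, KDR, FLT1 and NTRK2. None of these 12 passed, and all 7 that did were above the lower quartile on every array. The VEGF receptor FLT1 had 5.45 and 5.89 in shRNA 159 clones, 5.95 and 5.93 in shRNA 162 clones, and 5.91 and 5.94 in control clones. KIT had 4.97 and 5.30 in shRNA 159 clones, 5.40 and 5.49 in shRNA 162 clones, and 5.28 and 5.40 in control clones. In both, shRNA 159 clone 1 stood apart on the low side. Without shRNA 159 clone 2, FLT1 passed against control, and FLT1 and KIT passed between hairpins. RET, on its shared row, changed by -0.13 with shRNA 159 and -0.05 with shRNA 162. Across the 41 members that passed nowhere, the 6 clones ranged over 0.11 to 0.52 log2 units (median 0.27), and the change lay between -0.27 and 0.37 with shRNA 159 and between -0.33 and 0.24 with shRNA 162.

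The groups did not overlap for 22 of 48 members with shRNA 159 (42.4% of all rows) for 26 with shRNA 162 (56.6%), for 21 between hairpins (51.9%) and for 14 with all 4 silenced clones against control (21.9%). The 2 clones of a group differed by a median of 0.11 over the members and 0.11 over all rows with shRNA 159, by 0.08 and 0.08 with shRNA 162, and by 0.07 and 0.09 in control.

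Around these members, 6 lists of related genes were described by the same test. Of 20 other receptor tyrosine kinases measured, 0 passed in any comparison by limma. Of all rows, 2.53% passed with shRNA 159, 9.52% with shRNA 162, 8.65% between hairpins and 4.62% for the mean. At an unadjusted p under 0.05 there were 1 higher and 0 lower with shRNA 159 (14.1% of all rows in either direction) and 3 and 2 with shRNA 162 (25.1%). There were 1 and 2 between hairpins (24.2%) and 4 and 1 for the mean (19.8%). The median change of these kinases was -0.03 with shRNA 159 and -0.01 with shRNA 162. Of 29 other ligands, 0 rose and 1 fell with shRNA 159, 2 rose and 6 fell with shRNA 162, and 1 rose and 5 fell for the mean. Over all rows the shares were 1.69% higher and 0.839% lower with shRNA 159, 5.88% higher and 3.64% lower with shRNA 162, and 3.01% higher and 1.61% lower for the mean. The ligands' median change was -0.11 with shRNA 159 and -0.03 with shRNA 162. NRG1, a ligand of ERBB3 and ERBB4, rose by 1.25 with shRNA 162 (limma adjusted p = 0.000136) and changed by 0.14 with shRNA 159 (adjusted p = 0.476). NRG1 lies on chromosome 8 too, and 11 of its 20 neighbours rose with shRNA 162 (median 0.51), a shift whose part in the result was not tested. FGF1, which binds all FGF receptors, fell by 0.93 with shRNA 162 (adjusted p = 0.00043) and changed by -0.26 with shRNA 159, and FGF5, a related ligand, fell by 0.55 with shRNA 162. BDNF, the ligand of NTRK2, fell by 0.64 with shRNA 162 but changed by 0.30 with shRNA 159 (adjusted p = 0.181). The difference between hairpins for BDNF was 0.94 (adjusted p = 0.0012). WNT5A, the ligand of the ROR receptors, fell by 0.57 with shRNA 162 and changed by -0.48 with shRNA 159 (adjusted p = 0.0612). Its signal was dim, at the 25.1 percentile of all rows and below the lower quartile on 3 of the 6 arrays. PROS1, a ligand of TYRO3 and MERTK, was the ligand that fell with shRNA 159, by 0.42 (adjusted p = 0.0421). VEGFC, a ligand of the lymphatic VEGF receptor, rose by 0.31 with shRNA 162 (adjusted p = 0.0449) and changed by -0.03 with shRNA 159 (adjusted p = 0.89), and the hairpins differed by -0.35 (adjusted p = 0.0331).

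Among 12 measured proteases that release ligands and receptors, 3 were higher and 1 lower with shRNA 159 than with shRNA 162, beside 4.02% higher and 4.64% lower over all rows. Against control, 1 rose and 1 fell with shRNA 159, beside 1.69% higher and 0.839% lower over all rows. With shRNA 162, 1 rose and 1 fell, beside 5.88% higher and 3.64% lower. The median change was 0.04 with shRNA 159 and -0.07 with shRNA 162. ADAM17, which releases TGFA and HBEGF, rose by 0.53 with shRNA 159 (limma adjusted p = 0.00828) and changed by 0.04 with shRNA 162. Of its 20 neighbours on chromosome 2, 8 rose with shRNA 159, and their part was not tested. ADAM10, which cleaves ephrins and betacellulin, fell by 0.35 with shRNA 162 (adjusted p = 0.0256) and changed by -0.05 with shRNA 159, with 0 of 20 neighbours passing against control. ADAM9, in the region of FGFR1, fell with shRNA 159 (-0.42) and rose with shRNA 162 (0.33). ADAM12 was 0.35 higher with shRNA 159 than with shRNA 162, and passed with neither against control (0.28 with shRNA 159 and -0.07 with shRNA 162).

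Of 38 adaptors and effectors, 1 rose and 1 fell with shRNA 159, 1 rose and 3 fell with shRNA 162, and 0 passed for the mean by limma (2 higher and 4 lower at an unadjusted p under 0.05). For the mean, 4.62% of all rows passed and 19.8% had an unadjusted p under 0.05. The 2 of 38 with shRNA 159 stand beside 2.53% of all rows that passed, and the 4 of 38 with shRNA 162 beside 9.52%. Between hairpins, 5 adaptors were higher and 4 lower with shRNA 159 than with shRNA 162, beside 4.02% higher and 4.64% lower over all rows. The share of adaptors was not tested against its background. The adaptors' median change was 0.01 with shRNA 159 and 0.00 with shRNA 162. SOS1, the exchange factor that loads RAS, rose by 0.54 with shRNA 159 (adjusted p = 0.0211), with 6 of 20 neighbours on chromosome 2 also higher, and SHC3, a neuronal adaptor of the SHC family, fell by 0.47 (adjusted p = 0.0243). With shRNA 162, FYN, a SRC-family kinase used by ephrin-A and Eph signalling, fell by 0.46, AKT1, a kinase downstream of PI3K, fell by 0.44 (5 of 20 neighbours lower), HRAS fell by 0.32, and PIK3R3, a regulatory subunit of PI3K, rose by 0.41. With shRNA 159 the change was 0.02 for FYN, -0.12 for AKT1, 0.00 for HRAS and -0.20 for PIK3R3, and none of these passed.

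Of 27 attenuators of receptor signalling, 1 rose and 0 fell with shRNA 159, and 5 rose and 2 fell with shRNA 162, beside the shares of all rows given for the ligands, with a median of 0.03 with shRNA 159 and 0.07 with shRNA 162. PTPN12, a cytoplasmic tyrosine phosphatase that acts on receptor kinases and adhesion proteins, rose by 0.73 with shRNA 159 (limma adjusted p = 0.00345) and by 0.44 with shRNA 162 (adjusted p = 0.0154). On chromosome 7, 5 of its 20 neighbours rose with each hairpin. SOCS2, a suppressor of cytokine signalling, rose by 0.60 with shRNA 162 (adjusted p = 0.012), and UBASH3B, a phosphatase that slows the removal of EGFR, fell by 0.56 (adjusted p = 0.00594). The receptor phosphatase PTPRF rose by 0.42 with shRNA 162 (adjusted p = 0.0149) and changed by 0.11 with shRNA 159 (adjusted p = 0.574), a difference of -0.30 between hairpins. PTPRK, another receptor phosphatase, rose by 0.31 with shRNA 162 (adjusted p = 0.0365) and changed by -0.02 with shRNA 159 (adjusted p = 0.944), a difference of -0.33. PTPRB, an endothelial receptor phosphatase with a signal below the lower quartile on all arrays, fell by 0.45 with shRNA 162 (adjusted p = 0.0226) and by 0.36 for the mean (adjusted p = 0.0451).

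Of 28 signalling partners of Eph receptors and ephrins, 1 rose and 3 fell with shRNA 159, and 1 rose and 2 fell with shRNA 162, with a median of 0.00 with shRNA 159 and 0.01 with shRNA 162. In either direction 2.53% of all rows passed with shRNA 159 and 9.52% with shRNA 162. The 3 of 28 partners with shRNA 162 are near the latter share. With shRNA 159, the 3 that fell stand beside 0.839% lower over all rows, and the 1 that rose beside 1.69% higher. The share of partners was not tested against its background. CHN1, whose product is a RAC-inactivating protein that acts downstream of EPHA4 in neurons, rose by 0.43 with shRNA 159 (limma adjusted p = 0.0297) and by 0.61 with shRNA 162 (adjusted p = 0.00368). Over all rows 0.750% rose with both hairpins, and a link between the changes of CHN1 and EPHA4 was not tested. Of the 20 neighbours of CHN1, 1 or fewer rose with either hairpin. GIT1, an ARF-regulating scaffold recruited in ephrin-B signalling, fell by 0.73 with shRNA 159 (adjusted p = 0.00181), as did 9 of its 20 neighbours on chromosome 17. INPPL1, a lipid phosphatase bound by EPHA2, fell by 0.38 and the phosphatase PTPN13, which carries several PDZ domains and acts on ephrin-B, fell by 0.48 with the same hairpin. PAK2, a kinase downstream of RAC, fell by 0.61 with shRNA 162, as did 13 of its 20 neighbours on chromosome 3, and SIPA1L1, a RAP-inactivating partner of EPHA4, fell by 0.51, as did 5 of its 20 neighbours on chromosome 14.

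**Figure D5:**
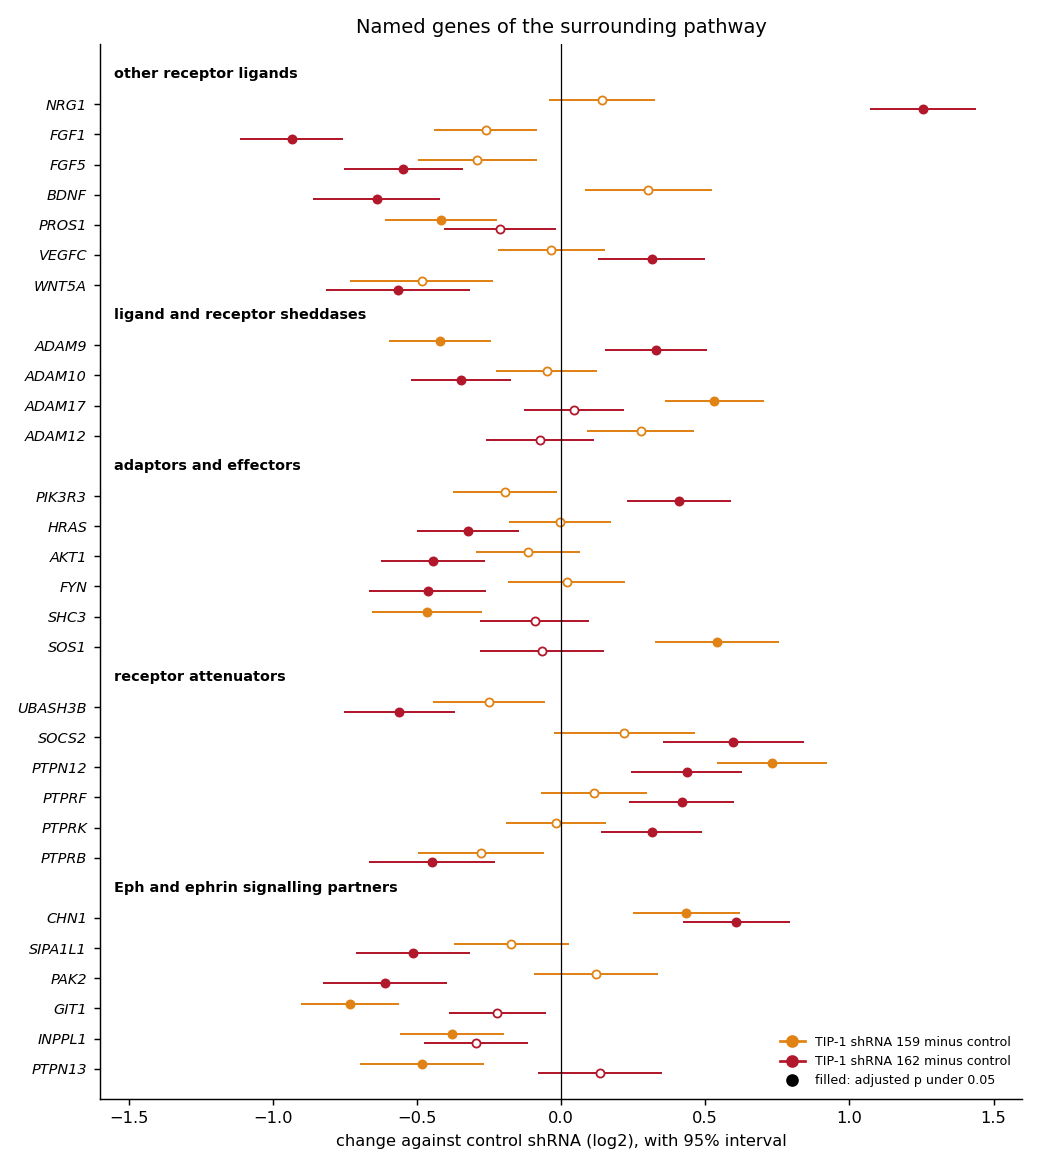
Log2 change against control shRNA of the named genes of the surrounding lists, up to 4 with the smallest p in each list and comparison, for TIP-1 shRNA 159 (orange) and TIP-1 shRNA 162 (red), with 95% intervals from limma; filled points have an adjusted p under 0.05. CHN1 and PTPN12 are filled and to the right for both hairpins, whereas NRG1 (1.25) and FGF1 (-0.93) are filled for shRNA 162, and ADAM9 lies on opposite sides of 0.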

How the data were processed

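Each of the 6 clones was hybridised to 1 array. The values analysed are the authors' deposited table of 33297 rows, taken as log2 signals because they span 2.29 to 14.65. Per the series' design text, the Affymetrix Exon Array Computational Tool made them; no source used here gives its settings. Rows were named through the platform annotation: 19461 had 1 symbol, 1753 several and 12083 none. The 21214 rows with a symbol were fitted with limma 3.58.1 (R 4.3.3), a mean per group, moderated variances and Benjamini-Hochberg adjustment over all of them, at a threshold of 0.05. All 3 groups shared 1 estimate of the spread, which rests on 2 clones a group. Arrays give no read depth; the number of clones limits the precision. For a gene with more than 1 row the brightest was used.

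The members and lists were chosen with earlier results of these data known. Named were TAX1BP3, every member that passed, and up to 4 genes of each list with the smallest p per comparison; other members appear by value or in counts. Alternatives left out dim rows, added rows without a symbol, quantile-normalized the arrays, left out each clone in turn, let the variance follow the mean, blocked on clone number, fitted fewer arrays, pooled the hairpins, took hairpin as a random block or averaged a gene's rows. Neighbours and promoter windows come from RefSeq on GRCh38.p14; figures used matplotlib 3.10.9 under Python 3.11.15.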

Additional observations from a re-analysis of the deposited data

Results flagged for a closer look

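For 6 of 48 members (12.5%) the change differed between the 2 hairpins by the test of the difference itself (shRNA 159 minus shRNA 162, log2). Of all rows 8.65% passed that test. With rows without a symbol tested too, 0 members passed it. The 6 differences were 0.62 for TGFA, 0.58 for PDGFA, 0.52 for EFNA4, 0.41 for PDGFRB, 0.34 for EFNB2 and -0.42 for FGFR1. For TGFA, PDGFA and EFNA4 the shRNA 162 clones were low, for PDGFRB the shRNA 159 clones were high, and for EFNB2 both were below control by unequal amounts. For FGFR1 the shRNA 162 clones were high, together with 12 of its 20 neighbours. Silencing of TAX1BP3 also differed between the hairpins (0.47), and its part in these differences was not tested. Groups of 2 clones are too small for a search for outlying samples.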

How the results depend on the processing

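No change of TAX1BP3 or of a member turned its direction in a comparison in which it passed, under the alternatives run; that of EFNA4 with shRNA 159, which did not pass, ran from -0.03 to 0.16. With dim rows left out, 34 members were tested, of which 5 passed with shRNA 159 and 6 for the mean (2 and 3 of 48 as reported). Calls over all rows moved too, to 821 and 1487 of 15910 rows, from 537 and 980 of 21214. In that setting 23 calls were made among adaptors and 1 among other receptor tyrosine kinases (15 and 0 as reported, calls in a list being summed over 4 comparisons). With unnamed rows tested too, 1 member passed with shRNA 159, 3 with shRNA 162 and 0 between hairpins (2, 6 and 6 as reported). Of all 33297 rows, 111, 691 and 593 passed there (537, 2019 and 1836 of 21214 as reported). Calls fell to 8 among ligands, 2 among proteases, 2 among adaptors, 3 among attenuators and 7 among Eph partners, from 20, 9, 15, 14 and 15. A variance trend gave 4 members with shRNA 159 and 6 for the mean, while 1137 and 2265 of all 21214 rows passed. It also gave 1, 29, 25 and 24 calls among other kinases, adaptors, attenuators and Eph partners. Quantile normalization gave 1 among other kinases. Fitting 4 arrays alone gave 1 member with shRNA 159 (377 of all rows passed). The 4 silenced clones as 1 group gave 1 member for the mean (71 of all rows passed), and hairpin as a random block gave 0 (27 of all rows passed). Leaving out 1 clone, where a lone clone was assumed to vary like the other groups, gave 1 to 2 members with shRNA 159, 2 to 7 with shRNA 162, 0 to 5 between hairpins and 1 to 4 for the mean, with 0 to 2, 9 to 16, 2 to 6, 3 to 10, 2 to 11 and 6 to 14 calls in the lists of kinases, ligands, proteases, adaptors, attenuators and Eph partners. Without control clone 1 the shRNA 162 members were EFNB2 and TGFA, and without shRNA 162 clone 2 no member passed between hairpins. The cause of these shifts was not tested.

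A replicate block on clone number left the members at 2, 6, 6 and 3 and gave 2 calls among other kinases. Deviations of same-numbered clones correlated at -0.05 (control and shRNA 162), 0.26 (control and shRNA 159) and -0.03 (the hairpins). Only control and shRNA 159 thus shared some deviation by clone number, and whether the numbers mark a batch was not tested. With 2 clones a group, 95% intervals of members that did not pass reached up to 0.32 to each side, the smallest change of a member that passed was 0.34, and rows below the lower quartile could hide a loss.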

Other observations

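FGFR3 and EFNA2 also lie among genes that rose, without rising themselves. FGFR3, on chromosome 4, changed by -0.10 with shRNA 162 while 11 of its 20 neighbours rose (median 0.38), and with shRNA 159 it changed by -0.06 while 0 neighbours passed. EFNA2, on chromosome 19, had a change of -0.03 with shRNA 159 and -0.10 with shRNA 162, while 3 and 9 of its 20 neighbours rose.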
